A study of Mus musculus with 10 samples.

Results

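The scavenger receptors described here are 9 mouse genes, Marco, Msr1, Cd36, Scarb1, Scarb2, Stab1, Mrc1, Cd163 and Olr1. They were taken by symbol from the 24411 genes counted in each library, by a rule that uses no measured value. The genes themselves were chosen with earlier results of these data known. Scavenger receptors are cell surface or endosomal proteins that bind modified lipoproteins, bacterial surfaces, dying cells and other polyanionic cargo and carry it into the cell. In the brain they are known from microglia and from the macrophages of its borders, where they take part in the clearance of debris and lipid. Lipopolysaccharide (LPS), a component of the outer membrane of Gram-negative bacteria, acts through Toll-like receptor 4 and drives inflammatory transcription in these cells.

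RNA was sequenced from primary mouse microglia and from BV2 cells, an immortalised mouse microglial line. Every library came from cells given EPZ-6438 at 10 uM, an inhibitor of the histone methyltransferase EZH2, and the groups were sampled at 4 h. Primary microglia were given EPZ-6438 alone (n = 3) or together with LPS at 10 ng/ml (n = 3), and BV2 cells likewise (n = 2 for each). No library lacking EPZ-6438 was used here. "Without LPS" below therefore means EPZ-6438 alone, and each LPS response was measured under it. The primary cells were shaken off mixed glial cultures from the pooled brains of 12 ICR mice aged 3 days, with meninges and vessels taken off, and were over 92% CD11b-positive. The labels do not say that replicates were separate cultures, so the p-values rest on a spread that may be technical and speak for these samples alone.

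Each library held 2750988 to 3684012 gene counts. The ribosomal precursor gene Rn45s took 15.7% to 51.7% of them, with 50.3%, 51.7% and 40.9% in primary microglia without LPS and 43.7%, 15.7% and 16% with LPS. The first LPS-treated primary library stood apart from the other 2 of its group (r = 0.963 and 0.965 across genes, against 0.982 between those 2). Of 12 microglial markers, 11 were detected in primary microglia and 10 in BV2 cells, with Siglech at 0 in every library and Sall1 at 0 in BV2 cells. The 9 astrocyte markers summed to 872.3 to 1457 CPM (counts scaled to a common library total) in primary microglia without LPS and 885.3 to 1558 CPM with LPS, against at most 43.04 CPM in BV2 cells, where Gfap was at 0. The 7 fibroblast markers summed to 99.59 to 320.1 CPM without LPS and 74.32 to 130.7 CPM with LPS in the primary cultures and were all at 0 in BV2 cells. In such bulk samples, fewer cells of a type and less RNA per cell cannot be told apart.

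Promoter sequence was matched for 7 of the 9 genes (RefSeq, GRCm38.p6), the 250 bases before the start that RefSeq gives for each. GENCODE M21, used for gene positions below, places some starts elsewhere. The windows of Scarb2 and of Cd36 (chr5:17835897-17836146, minus) therefore lie within their GENCODE genes, and the Mrc1 window runs into the first bases of its gene. The windows of 4 genes are printed because their genes differ in their response to LPS: Marco and Olr1 rose in primary microglia, Scarb2 fell, and Mrc1 did not pass the test. Sequences run 5′ to 3′ on the strand of the gene, and capitals mark matches to a searched motif on either strand. The windows are chr1:120505025-120505274 (minus strand), chr6:129507166-129507415 (minus), chr5:92505658-92505907 (minus) and chr2:14229164-14229413 (plus).
Marco: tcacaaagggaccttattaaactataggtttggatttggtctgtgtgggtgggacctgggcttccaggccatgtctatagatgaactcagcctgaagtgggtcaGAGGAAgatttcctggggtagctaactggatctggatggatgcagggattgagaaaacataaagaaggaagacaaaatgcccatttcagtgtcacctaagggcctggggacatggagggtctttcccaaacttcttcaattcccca
Olr1: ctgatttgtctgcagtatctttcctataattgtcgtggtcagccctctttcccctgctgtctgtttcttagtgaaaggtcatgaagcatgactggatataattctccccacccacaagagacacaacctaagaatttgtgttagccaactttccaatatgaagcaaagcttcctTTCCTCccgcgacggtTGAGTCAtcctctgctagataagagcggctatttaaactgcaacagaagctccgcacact
Scarb2: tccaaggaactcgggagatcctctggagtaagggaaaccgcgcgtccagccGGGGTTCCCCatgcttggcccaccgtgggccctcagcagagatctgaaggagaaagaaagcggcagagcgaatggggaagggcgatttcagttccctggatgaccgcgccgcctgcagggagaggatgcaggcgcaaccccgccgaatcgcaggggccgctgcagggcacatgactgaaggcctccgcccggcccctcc
Mrc1: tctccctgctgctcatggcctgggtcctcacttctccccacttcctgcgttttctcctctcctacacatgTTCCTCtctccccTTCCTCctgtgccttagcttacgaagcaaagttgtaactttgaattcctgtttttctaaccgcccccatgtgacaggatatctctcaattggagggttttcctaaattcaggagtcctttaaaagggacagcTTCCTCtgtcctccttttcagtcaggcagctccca
The motifs searched were the kappaB site, AP-1 (TGANTCA), PU.1 (GAGGAA) and the interferon-stimulated response element (ISRE). Of 32841 promoters of the same length, 3.9% held a kappaB match, 6.75% an AP-1 match, 23.3% a PU.1 match and 2.98% an ISRE match. The Marco window held 1 PU.1 match, 146 to 141 bases before the start. The Olr1 window held an AP-1 match 60 to 54 bases before the start, read on both strands, and a PU.1 match at 76 to 71 bases. The Scarb2 window held a kappaB match on both strands, 199 to 190 bases before the start, and the Mrc1 window held 3 PU.1 matches. Among the windows not printed, that of Stab1 held 1 PU.1 match, and those of Cd36 and Cd163 held no match to any motif searched. A match is a description of the letters only.

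In primary microglia 3 of the receptors rose with LPS and 3 fell. Marco, Msr1 and Olr1 rose, Scarb1, Scarb2 and Stab1 fell, and Cd36 and Mrc1 did not pass the test. Of the 10664 genes tested in this comparison 39.2% were called, 21.4% higher and 17.8% lower, so the 6 of 8 tested receptors stand beside a high background. The groups did not overlap for 5 of the 8, where 49% of all genes tested had groups that did not. Their median log2 fold change was 0.25, against -0.03 for all genes. Cd163 was too low to test, and Olr1 passed the filter on low counts only through the LPS group.

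Marco, a class A receptor that binds bacteria and particles, lies at chr1:120474538-120505024 (mm10, GENCODE M21, minus strand). Its level without LPS was 40.46, 25.35 and 35.89 CPM in the 3 primary libraries and with LPS 371, 470.8 and 363.2 CPM. The groups were far apart, and every LPS library lay above every library without it. The fold was 11.69 (95% interval 9.17 to 14.91; log2 3.55 ± 0.17, adjusted p = 1.88e-11).

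Olr1, the lectin-like receptor for oxidised low-density lipoprotein (LOX-1; chr6:129485244-129507165, minus), was nearly silent without LPS. It had 3, 3 and 1 counts in the untreated primary libraries and 110, 151 and 160 with LPS, which is 0.901 ± 0.478 CPM against 45.54 ± 2.54 CPM (SD, n = 3). The level with LPS varied little between libraries, from 43.09 to 48.16 CPM. The fitted fold was 48.95 (95% interval 31.67 to 75.65; adjusted p = 1.13e-11), the largest among the 8 receptors tested.

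Msr1, the class A macrophage scavenger receptor (chr8:39581685-39642673, minus), had 31.09, 32.7 and 27.1 CPM without LPS and 197.4, 78.78 and 106 CPM with LPS. All LPS libraries were above all others, but the first lay well above its partners and the coefficient of variation was 48.8%. The log2 fold change was 2.05 ± 0.40 (4.146-fold, adjusted p = 0.012). Without that library it was 1.61 ± 0.14 and Msr1 was again called. That fit estimated the spread anew, so its p-value cannot be set against that of the main fit.

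**Figure D1:**
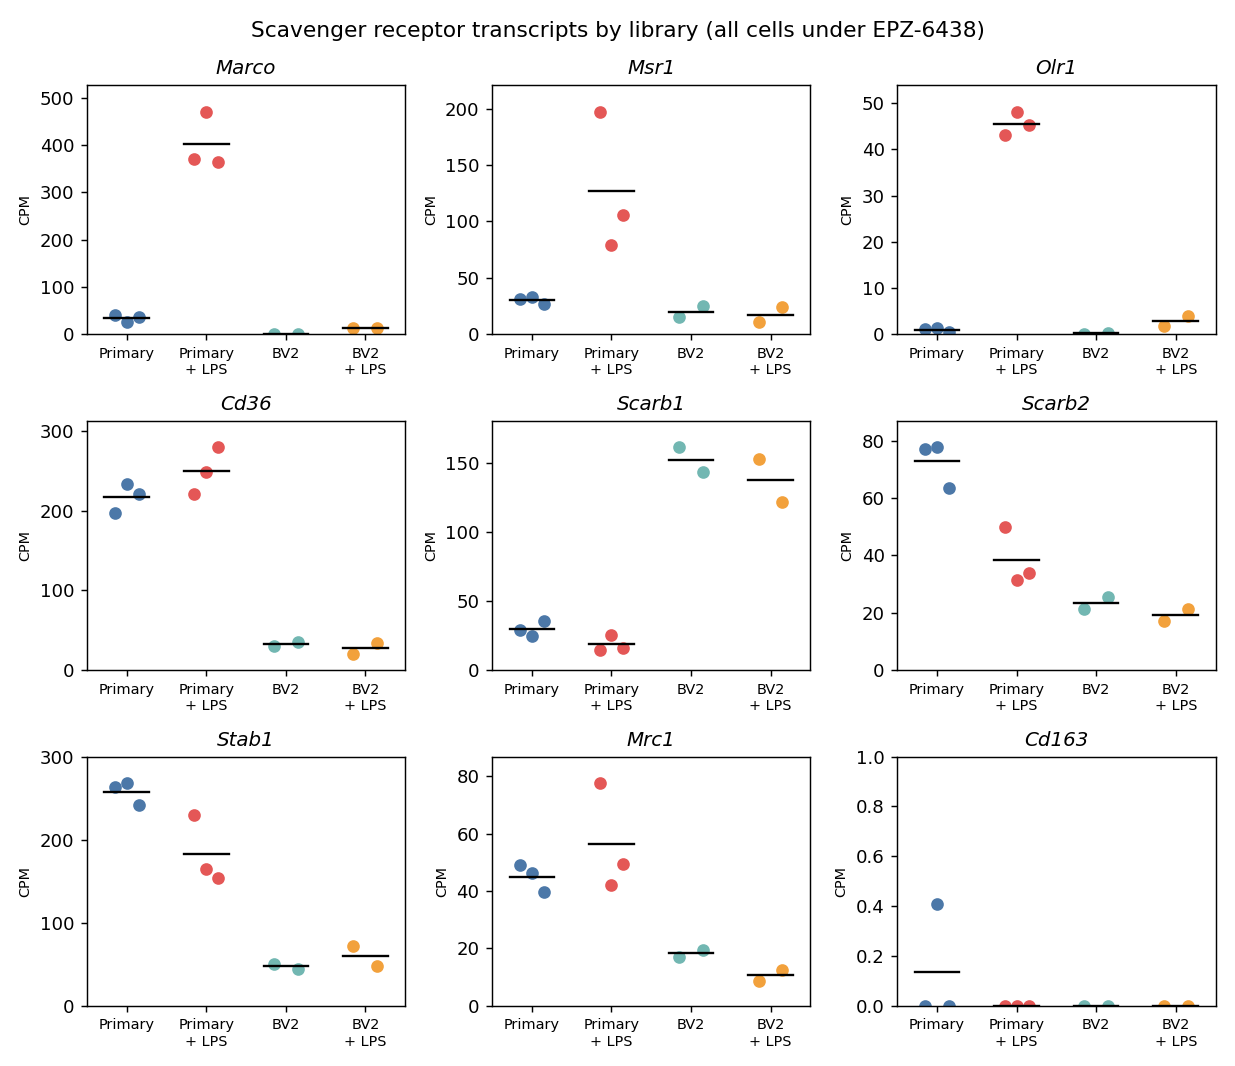
Level of each of the 9 receptors in every library (CPM on TMM-scaled totals, one panel per gene, linear axes), with points for libraries and bars for group means. Marco in primary microglia went from 25.35 to 40.46 CPM without LPS to 363.2 to 470.8 CPM with it, while Cd163 stayed at or near 0 in every group.

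The class B receptors, which handle lipids, did not rise. Cd36, the fatty acid translocase and receptor for oxidised lipoprotein (chr5:17781690-17888801, minus), had 196.7, 233.4 and 220.3 CPM without LPS and 220.9, 248.8 and 279.3 CPM with LPS. The groups overlapped and the log2 fold change was 0.19 ± 0.12 (95% interval -0.06 to 0.44, adjusted p = 0.213). Without the first LPS library it was 0.28 with an adjusted p of 0.0309, in a fit that called 5326 genes against 4178 in the main fit.

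Scarb2, also called LIMP-2, is the lysosomal membrane protein that carries glucocerebrosidase to lysosomes (chr5:92441314-92506833, minus). Its 3 primary libraries had 77.17, 77.67 and 63.69 CPM without LPS and 49.75, 31.26 and 33.74 CPM with LPS. No library of one group reached the other. The level fell 1.935-fold (log2 -0.95 ± 0.17, adjusted p = 0.000166).

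Scarb1, the high-density lipoprotein receptor SR-BI (chr5:125277087-125341094, minus), had 28.85, 24.53 and 35.19 CPM without LPS and 14.49, 25.52 and 16.16 CPM with LPS. The groups overlapped in 1 library, and the fall of -0.67 ± 0.22 on the log2 scale passed the test narrowly (adjusted p = 0.0214). It did not pass with DESeq2 (adjusted p = 0.0873), nor without the first (0.0611) or the third (0.12) library without LPS, nor without the third LPS library (0.117).

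Stab1, or stabilin-1, an endocytic receptor of macrophages and sinusoidal endothelium, lies at chr14:31139013-31168641 on the minus strand. It had 263.4, 268.2 and 241.7 CPM without LPS and 229.6, 164.3 and 153.9 CPM with LPS, with no overlap. Its log2 fold change was -0.51 ± 0.14 (adjusted p = 0.00648), and 0.0526 was the adjusted p without the third LPS library.

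Mrc1, the mannose receptor CD206 (chr2:14229392-14332057, plus), had 49.07, 46.2 and 39.76 CPM without LPS and 77.57, 42.1 and 49.33 CPM with LPS. The ranges overlapped and the log2 fold change was 0.30 ± 0.21 (95% interval -0.15 to 0.75, adjusted p = 0.278). Cd163, the haemoglobin-haptoglobin receptor (chr6:124304656-124330527, plus), had 1 count in all 10 libraries together. Group counts of 0 allow up to 0.326 CPM in LPS-treated primary microglia, 0.481 CPM in BV2 cells and 0.46 CPM in BV2 cells with LPS.

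The share of Rn45s differed between the primary libraries and groups. Other differences between libraries that may go with this share were not tested, and leaving genes out does not address them. With the 132 structural RNA genes, Rn45s among them, left out before normalization, the log2 fold change was 3.53 for Marco, 2.04 for Msr1, 5.60 for Olr1, -0.69 for Scarb1, -0.97 for Scarb2 and -0.53 for Stab1, and the same 6 receptors were called.

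Some markers of border macrophages were also higher with LPS. The 10 markers summed to 284.5 to 357.8 CPM without LPS and 531.4 to 579.5 CPM with LPS in primary microglia. Of 6 tested, 3 were higher (Ms4a7, Siglec1 and Folr2), in a comparison where 21.4% of all genes were higher. Most of the rise in the sum was Ms4a7, from 70.77 to 247.8 CPM, while F13a1, Pf4 and Ccr1 did not pass the test. Cd209f was at 0 in every library and Lyve1 had 2 counts in each primary group. Clec10a had 6 counts in primary microglia without LPS and 0 with it. The 12 microglial markers summed to 1941 to 2151 CPM without LPS and 1712 to 1805 CPM with LPS in these cultures. Of 10 tested, 0 were higher and 3 lower (Trem2, Csf1r and P2ry12), where 17.8% of all genes were lower. The part of either cell type in the receptor values was not tested.

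In BV2 cells 1 receptor, Marco, rose with LPS. It was the only one of the 7 tested that was called, in a comparison where 5.2% of 9321 genes were called, 3.69% higher and 1.51% lower. Marco had 0 counts in both libraries without LPS and 37 and 43 counts with LPS (12.42 and 12.11 CPM). Against 3 counts over the group without LPS, the rise was at least 25.48-fold. The adjusted p of 5.25e-05 belongs to the fitted fold change and not to this bound. Marco passed the filter through the LPS group alone, so that p-value is not separate support. The level with LPS in BV2 cells was below that of primary microglia without LPS.

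Olr1 in BV2 cells had 0 and 1 counts without LPS and 5 and 14 with LPS. The ratio was 18.14 with a counting interval of 2.883 to 753.6. It was too low for the filter, and its adjusted p was 0.00481 with no filter and 0.00527 in a fit of all 10 libraries. It did not pass without the first (0.268) or the second (0.0552) library without LPS, and was 0.0135 without the first with LPS.

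The other 6 receptors did not pass the test in BV2 cells. Msr1 had 15.28 and 24.79 CPM without LPS and 11.08 and 23.67 CPM with it (log2 -0.14 ± 0.34, 95% interval -0.88 to 0.60, adjusted p = 0.923). Cd36 had 30.57 and 35.36 CPM against 20.48 and 34.37 CPM (-0.21 ± 0.24, interval -0.75 to 0.32), and Scarb1 160.9 and 143.1 CPM against 152.7 and 121.4 CPM (-0.12 ± 0.15, interval -0.44 to 0.20). These 3 pairs of groups overlapped.

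Scarb2 in BV2 cells had 21.21 and 25.45 CPM without LPS and 17.12 and 21.13 CPM with it, a difference of -0.24 ± 0.23. Stab1 had 50.53 and 44.28 CPM against 72.17 and 47.89 CPM (0.37 ± 0.20, interval -0.06 to 0.79, adjusted p = 0.465). Mrc1 had 17.15 and 19.5 CPM against 8.728 and 12.4 CPM (-0.74 ± 0.26, interval -1.31 to -0.17, adjusted p = 0.171). Marco, Scarb2 and Mrc1 were the 3 of 7 whose groups did not overlap, where 42.1% of all genes tested did not. Without the second LPS library, Stab1 (0.65, adjusted p = 0.00934) and Mrc1 (-1.02, adjusted p = 0.0408) were called.

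**Figure D2:**
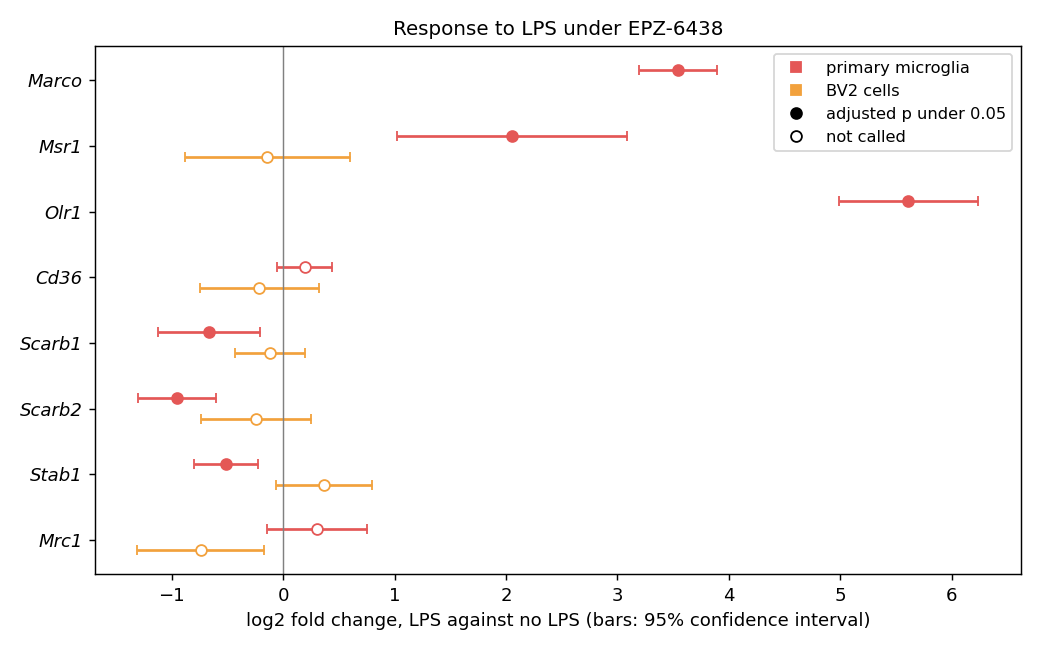
Log2 fold change with LPS for each receptor with its 95% interval, in primary microglia and in BV2 cells, where filled points passed an adjusted p of 0.05 and open points did not. Olr1 (5.61) and Marco (3.55) lead in primary microglia, and Marco and Olr1 in BV2 cells are left out because a group there held at most 1 count.

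The responses of the 2 cell types were compared directly as the LPS change in primary microglia minus that in BV2 cells. Over 11626 genes 12.2% differed, 8.65% higher and 3.54% lower, and among the 8 tested receptors 3 did. Stab1 responded lower in primary microglia (log2 difference -0.83 ± 0.26, adjusted p = 0.034) and Mrc1 higher (1.09 ± 0.35, adjusted p = 0.046). Marco gave -4.64 ± 1.29 (adjusted p = 0.0157), a fitted value that depends on the prior count because its BV2 group without LPS was at 0. None of the 3 calls held under every alternative: the Mrc1 call was lost in 10 of 16 (adjusted p from 0.0513 with the unstranded column to 0.23 without the first LPS-treated BV2 library, and 0.0784 with DESeq2), that of Stab1 in 5 of 16 and that of Marco in 3 of 16. The Stab1 call was lost without the second (adjusted p = 0.069) or the third (0.0796) LPS-treated primary library, without either BV2 library without LPS (0.0766 and 0.17) and without the first with LPS (0.278). The Marco call was lost with a replicate block (0.0598) and without either BV2 library without LPS (0.133 and 0.113).

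The remaining receptors did not pass this test. The difference was 2.24 ± 0.75 for Msr1 (adjusted p = 0.124), and 1.69 without the first LPS-treated primary library, where it passed (0.00284), and it passed in 4 of 16 alternatives in all. It was -0.66 for Scarb2, -0.50 for Scarb1, 0.45 for Cd36 and 1.77 ± 1.98 for Olr1 (adjusted p = 0.727). Leaving out 1 library brought a call for Scarb2 (-0.98, adjusted p = 0.00589, without the first LPS-treated primary library), Scarb1 (-0.79, 0.0484, without the second) and Cd36 (0.89, 0.0261, without the second LPS-treated BV2 library).

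Without LPS, 5 receptors were higher in primary microglia than in BV2 cells and 1 was lower. The background is high here, since 74.1% of 11626 genes were called, 41.5% higher and 32.5% lower, and 84.1% had groups that did not overlap. Cd36 was 6.574-fold higher (adjusted p = 6.76e-13), Stab1 5.429-fold (1.92e-10), Scarb2 3.119-fold (3.79e-08) and Mrc1 2.452-fold (4.71e-05). Marco was at least 70.42-fold higher against 3 counts over the BV2 group. Scarb1 was the exception, 5.122-fold lower in primary microglia (log2 -2.36 ± 0.18, adjusted p = 4.51e-11). Msr1 did not pass (0.60 ± 0.55, interval -0.70 to 1.90), and Olr1 had 7 counts against 1 (ratio 5.482, counting interval 0.7043 to 247.1, adjusted p = 0.0713). Olr1 was called without the third primary library without LPS (0.0354) or the second BV2 library without LPS (0.045), and Msr1 without the first LPS-treated primary library (0.65, adjusted p = 0.0313).

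With LPS, in a comparison where 73.8% of genes were called (43.1% higher and 30.7% lower) and 80.1% had groups that did not overlap, 7 receptors were higher in primary microglia and Scarb1 was lower. Marco was 32.66-fold higher (adjusted p = 7.07e-17), Olr1 15.54-fold (8.89e-12), Cd36 9.01-fold (3.05e-14) and Msr1 7.142-fold (0.0018). Olr1 had 421 counts against 19. It passed the filter only through LPS-treated primary microglia, the group where it is high, so its p-value is not separate support. Mrc1 was 5.218-fold higher, Stab1 3.046-fold and Scarb2 1.97-fold. Scarb1 was 7.257-fold lower. The comparisons between cell types share libraries with the LPS responses and with their difference. The astrocyte, fibroblast and neuron markers that were at or near 0 in BV2 cells moved with these differences, and their part was not tested.

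**Figure D3:**
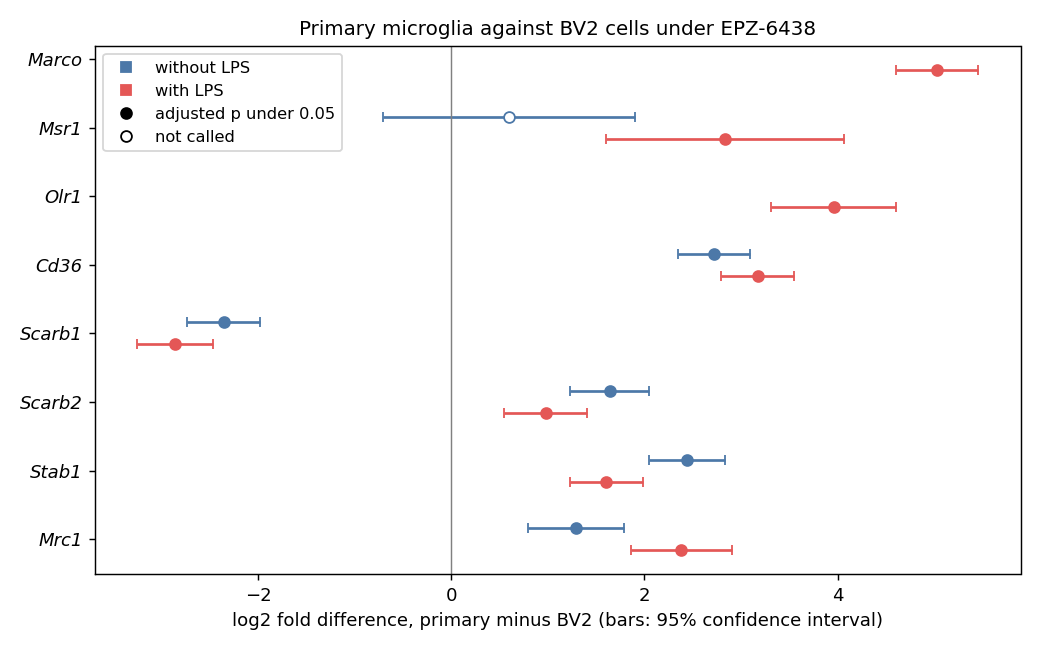
Log2 difference between primary microglia and BV2 cells for each receptor with its 95% interval, without and with LPS, where filled points passed an adjusted p of 0.05. Scarb1 lies below 0 in both (-2.36 and -2.86) and Cd36 above it (2.72 and 3.17), while Marco and Olr1 are drawn only with LPS.

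Levels of different genes were compared per length as RPKM. In primary microglia without LPS the order was Cd36 (60.39 RPKM), Stab1 (25.05), Marco (17.61), Scarb2 (11.59), Mrc1 (7.065), Msr1 (4.776), Scarb1 (3.473) and Olr1 (0.2522), and no neighbours in that order overlapped between libraries. With LPS, Marco was first at 208.6 RPKM, followed by Cd36 at 69.54, Msr1 at 20.08, Stab1 at 17.75, Olr1 at 12.75, Mrc1 at 8.842, Scarb2 at 6.086 and Scarb1 at 2.203. The libraries of Msr1 overlapped those of Stab1 and Olr1, and those of Mrc1 overlapped Olr1 and Scarb2, so these neighbours are not ordered. In BV2 cells Scarb1 led without LPS (17.88 RPKM) and with it (16.13), ahead of Cd36 at 9.182 and 7.639 RPKM. In BV2 cells Msr1 overlapped both Scarb2 and Mrc1, without and with LPS, while Scarb2 lay above Mrc1 in both. Cd36, Marco and Stab1 overlapped with LPS.

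The make-up of the receptor counts differed accordingly. The 9 genes summed to 687.2 ± 22.8 CPM in primary microglia without LPS and 1120 ± 78.9 CPM with LPS (SD, n = 3), and to 294.2 ± 2.03 and 286.7 ± 13.8 CPM in BV2 cells (n = 2). Marco made up 4.95% of the sum without LPS and 36% with LPS in primary microglia. Scarb1 made up 51.7% and 47.7% in BV2 cells.

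**Figure D4:**
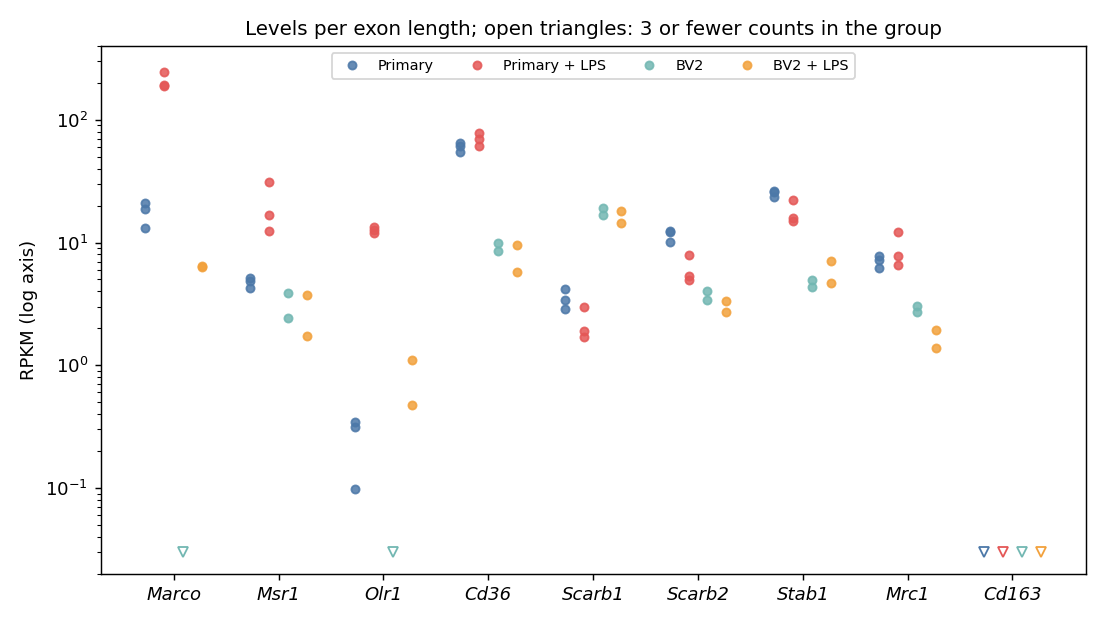
RPKM of each receptor in every library on a log axis, with points for libraries coloured by group and open triangles for pairs of gene and group with at most 3 counts. By group mean, Marco is highest in primary microglia with LPS (208.6 RPKM), Cd36 without LPS (60.39 RPKM) and Scarb1 in BV2 cells (17.88 RPKM without LPS).

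The 3 lists of related genes were chosen with earlier results of these data known. Their shares called are therefore no test against the share of all genes. Among 17 other scavenger receptors, 9 were tested in primary microglia, 2 were higher and 3 lower with LPS, beside 39.2% of all genes called. Cxcl16, a membrane chemokine that binds oxidised lipoprotein, went from 45.95 ± 4.10 to 321 ± 23.6 CPM (log2 2.79 ± 0.13, adjusted p = 8.56e-13). Clec7a, the beta-glucan receptor Dectin-1, rose by 0.77. Megf10 (-0.95), Colec12 (-0.66) and Cd68 (-0.32) fell. The median over the list was -0.16. The calls of Megf10 and Cd68 were each lost in 5 of 13 alternatives, and only 1 gene of the list was lower with DESeq2, without the first or the second library without LPS, or without the third LPS library. In BV2 cells 4 were tested, and their adjusted p-values ran from 0.207 to 0.991. With no low-count filter, and with a replicate block, 1 gene of the list was called lower there.

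Of 29 partners and cargo-handling genes, 28 were tested in primary microglia, 11 higher and 7 lower, where 21.4% of all genes were higher and 17.8% lower. Tlr2, the receptor for bacterial lipoproteins that cooperates with Cd36, went from 107.7 ± 10.5 to 1683 ± 150 CPM. Acsl1, which activates fatty acids, rose by 2.79 and the Src-family kinase Lyn by 2.25 on the log2 scale. The iron exporter Slc40a1 fell by 1.79, the cholesterol exporter Abcg1 by 1.48 and the lysosomal cholesterol transporter Npc1 by 1.26. The list median was 0.21. In BV2 cells, where 5.2% of all genes were called, 2 of 27 rose, Tlr2 (2.05) and Acsl1 (1.18), and the lipid droplet protein Plin2 fell (-0.69, adjusted p = 0.00886), with a list median of 0.00286. The Plin2 call was lost without the first (adjusted p = 0.124) or the second (0.0594) BV2 library without LPS.

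Of 20 regulators, 19 were tested in primary microglia, 10 higher and 6 lower, with a median of 0.70, beside the same 39.2% of all genes called. This list too was chosen with earlier results of these data known, so its share called is not an enrichment. Nfkb1 rose by 3.23 ± 0.30, Tfec by 2.39 and Cebpb by 1.71. Cebpa, which specifies myeloid cells, went from 440.6 ± 36.2 to 29.69 ± 6.10 CPM (-3.90 ± 0.15, adjusted p = 5.32e-14), and Rxra, the partner of lipid-sensing nuclear receptors, fell by 2.60. In BV2 cells, beside 5.2% of all genes called, 6 of 17 rose, led by Tfec (1.51), Cebpb (1.47) and Nfkb1 (1.31), and 2 fell, Rxra (-0.64) among them, with a median of 0.33. With DESeq2 the BV2 calls of Cebpb (adjusted p = 0.0789) and Rxra (0.326) were lost. The Rxra call was also lost without either library without LPS (0.358 and 0.173) or without the second with LPS (0.0773). In the direct comparison of responses, where 8.65% of all genes were higher and 3.54% lower, 9 of 28 partners were higher and 4 lower, and 5 of 19 regulators were higher and 4 lower. The 5 became 3 without the first primary library without LPS, and 2 without the first BV2 library without LPS or the second with LPS. The 4 partners became 2 without the second BV2 library without LPS.

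**Figure D5:**
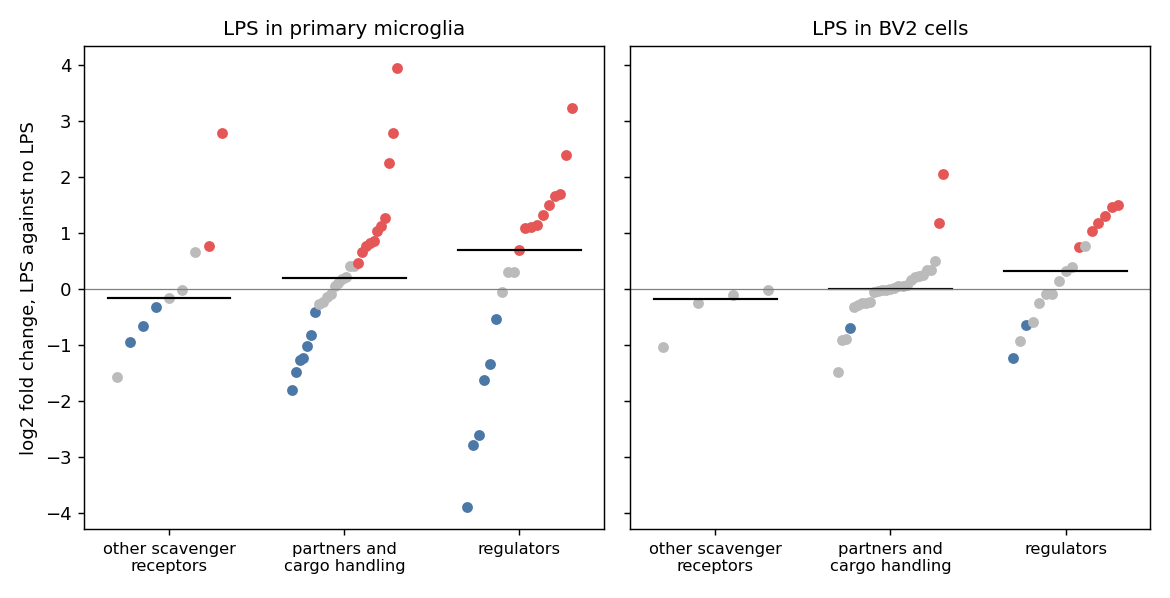
Log2 fold change with LPS of the tested genes of the 3 lists in primary microglia and in BV2 cells, with red for called higher, blue for called lower, grey for not called and a bar at the median. The regulators in primary microglia spread from -3.90 (Cebpa) to 3.23 (Nfkb1).

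Genes whose log2 CPM followed a receptor most closely over the 10 libraries are given as a description, since the libraries share 4 groups. Ptafr (r = 0.992), Stk40 (0.990) and Sqstm1 (0.984) were closest to Marco, and Peli1 (0.992), AW011738 (0.990) and Ripk2 (0.988) to Olr1. Msr1 was nearest to Ascc3 (0.987), Bbx and Trip12 (0.978 each). The nearest to Cd36 were Col18a1 (0.998) and Klf4 (0.9975), and to Stab1 Flnc (0.996), Nes and Dock6 (0.993 each). Scarb1 went with Naa10, Rbfa and Gsg2 (0.994 to 0.995), Scarb2 with Kat6b, Atp2b1 and Cdon (0.991 to 0.993), and Mrc1 with Acvr1 (0.997), Rps6ka2 (0.991) and Snap29 (0.985).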

How the data were processed

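The data are RNA-seq of 10 mouse libraries, and the genes and lists described here were chosen with earlier results of these data known. Per the submitters' processing notes, CASAVA 1.8.2, Trimmomatic 0.33, STAR 2.5.1 and the mm10 build were used, and DESeq2 is named with no version. For the gene annotation, the sources used here give no name. The deposited files hold raw read counts per gene symbol for the unstranded and the 2 stranded readings, and the reverse-strand column was taken because the kit marks strand and 0.682% to 2.21% of the gene reads counted by strand were on the opposite one. Non-gene entries held 70.4% to 79.5% of reads and were left out, multimapping reads (7.64% to 11.8%) among them.

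Counts were tested with edgeR 4.0.16 (limma 3.58.1, R 4.3.3) by the robust quasi-likelihood F test, with TMM normalization, filterByExpr (counts of at least 10, total of at least 15) and p-values adjusted by Benjamini-Hochberg over all genes tested. Adjusted p-values are from this test unless another is named, with 0.05 as the threshold for a call. The LPS responses were fitted within each cell type, and the difference of responses and the differences between cell types over all 10 libraries. The procedure was tested on simulated counts. CPM is the count scaled to a common total by the TMM-scaled library sizes of all 10 libraries. RPKM divides CPM by the union of exons in GENCODE M21. Log2 fold changes are given ± SE and levels as mean ± SD. The SE was worked back from the test, as the absolute log2 fold change over the square root of its F statistic. The 95% intervals of fold changes were built from that SE. Against a group at 0 counts, a fold is a lower bound set by 3 counts over the group, and with 1 to 3 counts a ratio has its exact 95% interval. These cover counting error only. In a single library, 0 counts allow a level of up to 0.845 to 1.23 CPM.

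All 9 members are described. From 3 lists of related genes, the 3 largest called rises and falls in each cell type are named. For each member averaging at least 5 CPM over the 10 libraries, the 3 genes with the highest Pearson correlation of log2 CPM (prior count 2) over the 10 libraries were found. Some genes these rules name are not reported here. Alternatives were RLE size factors, no low-count filter, DESeq2 1.42.0, 132 structural RNA genes left out, the unstranded column, a replicate block, a fit of all 10 libraries and each library left out.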

Additional observations from a re-analysis of the deposited data

Results flagged for a closer look

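The LPS response differed between primary microglia and BV2 cells, by a test of the difference itself, for 3 receptors. The log2 difference was -4.64 for Marco, -0.83 for Stab1 and 1.09 for Mrc1. The BV2 libraries without LPS held no Marco counts, so the size of its value depends on the prior count. The Mrc1 call was lost in 10 of 16 alternatives, that of Stab1 in 5 and that of Marco in 3, and leaving out either BV2 library without LPS ended all 3 calls.

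Reads on the strand opposite to Stab1 lie outside the counts compared. They made up 2.66% of its stranded reads in primary microglia without LPS (exact 95% binomial interval 2.02% to 3.45%), 6.22% with LPS (5.13% to 7.45%), 22.3% in BV2 cells (18.2% to 26.8%) and 18.9% in BV2 cells with LPS (15.5% to 22.8%). These intervals pool the libraries of a group and cover counting error only. In BV2 cells with LPS the libraries differed, with 35 reads opposite to 215 on the Stab1 strand in the first and 55 opposite to 170 in the second. In GENCODE M21, Nt5dc2 on the plus strand overlaps the end of Stab1 by 112 bases. The part of that overlap in these reads was not tested.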

How the results depend on the processing

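Genes called with LPS in BV2 cells numbered 485, 311 with DESeq2, and 353 to 800 with each library left out. Receptors called in BV2 cells were 1, but 2 with no low-count filter and 2 in the fit of all 10 libraries, and 1 to 3 with a library left out. Receptors whose responses differed were 3, and 0 to 4 with a library left out. In primary microglia, leaving out a library gave 3322 to 5326 called genes and 4 to 7 receptors. Among the receptors and alternatives run, signs changed only for values that were not called in the first place: with a library left out, the log2 fold change in BV2 cells ran from -0.80 to 0.29 for Msr1, from -0.64 to 0.11 for Cd36 and from -0.27 to 0.052 for Scarb1, and the difference of responses for Olr1 from -0.51 to 2.66. The cause of these changes was not tested. With structural RNA genes left out, 60.1% of genes with different responses were higher, against 70.9%. The labels do not say whether replicate numbers pair the primary samples. Between primary libraries of the same number, deviations from the group mean correlated at 0.19, -0.09 and 0.21. The third library without LPS and the second with LPS also gave 0.21, so these values cannot decide it. With the replicate block 4479, 596, 1685, 8560 and 8510 genes were called in the 5 comparisons, against 4178, 485, 1418, 8611 and 8578. Where a library left out leaves 1 in its group, that one is assumed to vary like the others. Depth leaves Cd163 untested and gives Marco and Olr1 in BV2 cells without LPS only a bound or a wide interval.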

Other observations

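Tmem119, a marker of mature microglia, had 2.505 ± 0.287 CPM in primary microglia without LPS and 1.90 ± 0.69 CPM with LPS (SD, n = 3), against 15.65 ± 3.44 and 10.47 ± 0.86 CPM in BV2 cells (n = 2). Sall1 went the other way, with 13.79 ± 1.16 CPM in primary microglia without LPS and 0 counts in BV2 cells. Ms4a7, a marker of border macrophages, went from 70.77 ± 6.96 to 247.8 ± 26.1 CPM with LPS in primary microglia and had 3.717 and 4.214 CPM on average in BV2 cells without and with LPS.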
